A study of Mus musculus with 8 samples.

Results

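The miR-203 strands are the mature products of the mouse Mir203 gene, read on the array by the probes mmu-miR-203 and mmu-miR-203*. They are 2 of the 1135 miRNA probes on each array, and both lay above the limit for dim spots often enough to be tested. The probes were taken by name, and miR-203 was chosen by its measured values in the comparison described here. It was lower in MCD-fed mice under every processing of the intensities, while the epithelial miR-200 miRNAs were higher. The change between diets of miR-203, of miR-203* and of the miR-200 miRNAs is therefore given as a description with no test.

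To examine the miRNAs of the liver in a dietary model of non-alcoholic steatohepatitis, total liver RNA was hybridised to 8 one-colour arrays. The MCD group held 4 arrays from mice fed a methionine- and choline-deficient diet. The control group held 4 arrays from mice on normal chow. All were male C57BL/6N mice, purchased at 8 weeks of age, with no genetic change or drug in either group. The labels give 23 weeks of diet for both groups, whereas the methods describe a shorter feeding period. The labels give each array a liver sample of its own and do not say which mouse it came from, so every spread given here is between samples. The MCD diet is known to induce steatosis, inflammation and fibrosis together with weight loss, and it is a model of the liver disease without the insulin resistance of most patients.

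miR-203 is a miRNA of epithelia, best known from the epidermis, where in mice it represses the transcription factor p63 and limits the proliferative capacity of cells that leave the basal layer. The miR-200 family is known from epithelia in general, where it represses the transcription factors Zeb1 and Zeb2, and in the liver it is found mainly in bile duct cells. A miRNA is cut from a hairpin as a duplex, of which 1 strand is usually kept by an Argonaute protein. In older names, as on this array, the star marks the strand that is less often kept.

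The sequences of the miR-203 strands are shown first because each probe reads 1 arm of the same hairpin. They are the mature entries of RefSeq (GRCm38.p6), written 5′ to 3′ with the seed, bases 2 to 8, in capitals. The older name miR-203 stands for miR-203-3p, at chr12:112130927-112130948 on the plus strand, and miR-203* for miR-203-5p, at chr12:112130889-112130910.
mmu-miR-203-3p: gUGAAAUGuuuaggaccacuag
mmu-miR-203-5p: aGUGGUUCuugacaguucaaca

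No other entry among the 1738 mature miRNAs of the RefSeq table shared either seed, so miR-203 had no seed family in that table. The miR-200 family falls into a pair of seed groups that differ from both. The next lines show these because the change of miR-203 is set beside theirs. miR-200a and miR-141 shared the first seed, and miR-200b, miR-200c and miR-429 shared the second.
mmu-miR-200a-3p: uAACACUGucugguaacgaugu
mmu-miR-141-3p: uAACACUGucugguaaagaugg
mmu-miR-200b-3p: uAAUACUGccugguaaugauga
mmu-miR-200c-3p: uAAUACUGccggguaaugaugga
mmu-miR-429-3p: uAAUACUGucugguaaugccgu

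The Mir203 gene lies on chromosome 12 at chr12:112130880-112130955 (GRCm38.p6), outside protein-coding genes, between Aspg, which ends 3.31 kb before it, and Kif26a, which starts 13.02 kb after it. A second annotated miRNA gene, Gm51289, overlaps it on the opposite strand. Its product miR-203b-5p was complementary to miR-203-3p over all 20 of its bases, and its sequence is given for that reason.
mmu-miR-203b-5p: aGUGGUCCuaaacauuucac

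The spot intensity of miR-203, in scanner units before any correction, was 378, 295, 345 and 349 in MCD 1 to 4, against 482, 418, 451 and 424 in control 1 to 4. Every MCD array lay below every control array, with 40 units between the highest MCD array and the lowest control array. The mean was 341.75 ± 34.5 in MCD-fed mice and 443.75 ± 29.3 in control mice (SD, n = 4 each), a ratio of 0.770. MCD 2 was the lowest of all arrays and control 1 the highest.

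miR-203 was a dim probe. Its spots passed both detection limits, the mean + 2 SD of the blank spots and that of the negative control spots, on all 8 arrays. The margin was smallest on MCD 2, where the spot read 295 and the negative control limit was 281.0. Spot intensity minus the mean of the blank spots was 174.5, 77.4, 136.1 and 133.5 in MCD 1 to 4, against 257.0, 192.7, 235.5 and 203.7 in control 1 to 4. The groups again did not overlap, and the ratio of the means, 130.4 ± 40.0 in MCD and 222.2 ± 29.4 in control (SD, n = 4 each), was 0.587.

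After background correction and quantile normalization, the log2 level of miR-203 was 7.78, 7.31, 7.55 and 7.82 in MCD 1 to 4, against 8.37, 8.27, 8.53 and 8.27 in control 1 to 4. The mean was 7.61 ± 0.23 in MCD-fed mice and 8.36 ± 0.12 in control mice (SD, n = 4 each). The change was −0.75 ± 0.12 (SE, limma) on the log2 scale, 1.68-fold lower in MCD-fed mice. It belongs to the 48 probes called lower of the 1076 tested (4.46%) and to the 67 whose MCD arrays all lay below the control arrays (6.23%). These shares are only background here, since this change chose the probe. In the order of changes from the largest fall it stood 16th, between miR-328* (−0.76 ± 0.15, SE) and miR-378 (−0.73 ± 0.10, SE), and these neighbours differed from it by less than their SE.

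**Figure D1:**
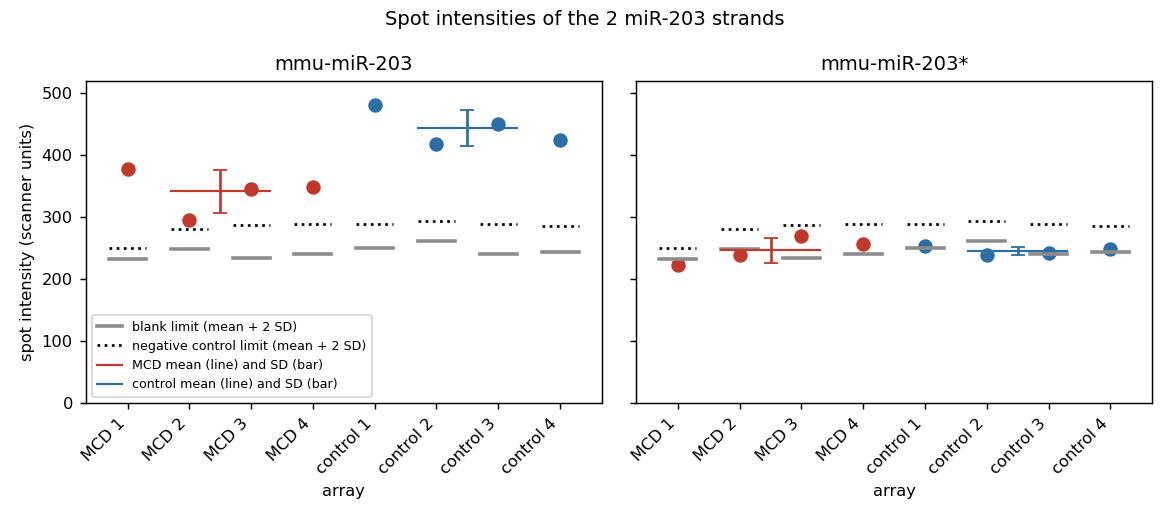
Spot intensity in scanner units (y axis, from 0) of mmu-miR-203 and mmu-miR-203* on each of the 4 MCD and 4 control arrays (x axis). Points are arrays, coloured lines and bars are the group mean and SD, and short grey and dotted lines are the blank and negative control limits of each array (mean + 2 SD). miR-203 lay between 295 and 378 in MCD and between 418 and 482 in control, whereas miR-203* stayed below the negative control limit on every array.

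The level of empty spots moved with the diet too. The median local background of an array was 123 to 140 in MCD, against 144 to 158 in control. Beside the miR-203 spot itself the local background was 123 to 138 in MCD and 140 to 160 in control with means of 131.75 in MCD and 153.5 in control. The 112 blank spots of the same block of the array had medians of 201 to 216 in MCD and 217 to 225 in control, with a ratio of the group means of 0.945. Spot minus local background of miR-203 was 255, 161, 213 and 211 in MCD 1 to 4, against 326, 260, 311 and 264 in control 1 to 4, so the groups did not overlap but came within 5 units of each other. The part of the background in the change was not tested.

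The spots that border miR-203 on the array had other ratios, but most of them were dim. Among them miR-148b, miR-665, miR-216b and miR-675-5p had ratios of MCD to control mean intensity of 0.979, 0.985, 1.06 and 0.965. Their means were 243.75 to 273.75 in MCD and 240.75 to 279.75 in control, below the mean negative control limits of 277.0 and 289.2. The probe shared by miR-199a-3p and miR-199b had a ratio of 2.39. An effect of the place of the spot on the array was not tested. All MCD arrays were at position 2 of their slides and all control arrays at position 1, so the diet and the position on the slide cannot be told apart.

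The other strand, miR-203*, was below the limit of the negative control spots. Its spot intensity was 223, 239, 269 and 256 in MCD 1 to 4, against 254, 239, 242 and 248 in control 1 to 4. The groups overlapped, with means of 246.75 ± 20.0 in MCD and 245.75 ± 6.65 in control (SD, n = 4 each). It passed the blank limit on 2 of 4 MCD arrays and 3 of 4 control arrays, and the negative control limit on none of the 8.

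The normalized log2 level of miR-203* was 6.59, 6.54, 6.96 and 6.78 in MCD 1 to 4, against 6.65, 6.60, 6.39 and 6.57 in control 1 to 4. The change was 0.16 ± 0.11 (SE), with means of 6.72 ± 0.19 in MCD and 6.56 ± 0.11 in control (SD, n = 4 each). With scaling to the spike controls it read −0.055, where the median of all tested probes was −0.24, and relative to that median it was 0.19. The local background subtracted from the miR-203* spots before normalization had means of 139 in MCD and 165.75 in control. The part of this step in the change was not tested. A change of miR-203* was not detectable at this signal, which never passed the negative control limit.

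The size of the miR-203 change depended on the processing. Its direction did not, but the probe was chosen because it was lower under every processing. It was −0.49 with no background correction and −1.13 with the mean of the blank spots subtracted, and −0.92 in the authors' processed values. Without scaling between arrays it was −0.56, with median scaling −0.52 and with cyclic loess scaling −0.73. Scaling to the spike controls gave −0.78, but there the median of all tested probes was at −0.24, and relative to that median miR-203 was at −0.54. Leaving out 1 array at a time gave −0.82 (without MCD 4) to −0.65 (without MCD 2).

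**Figure D2:**
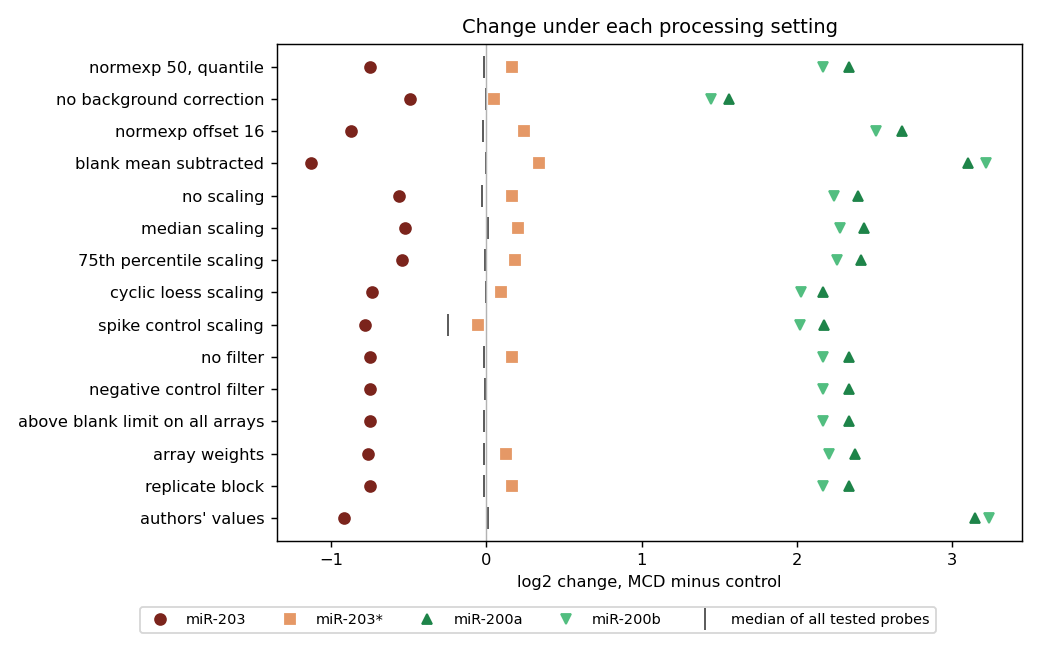
Log2 change, MCD minus control (x axis), of miR-203, miR-203*, miR-200a and miR-200b under each processing setting (y axis), with the median of all tested probes as a vertical tick. miR-203 lay between −1.13 and −0.49 in all settings and miR-200a and miR-200b above 1.4, while miR-203* lay between −0.055 and 0.34 where its change was computed.

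The authors' processed values, on a linear scale with a median of 45 per array, were 172.08, 76.45, 112.87 and 126.19 for miR-203 in MCD 1 to 4, against 250.86, 217.8, 217.84 and 200.05 in control 1 to 4. The groups did not overlap in these values either, and the mean was 121.9 ± 39.5 in MCD-fed mice and 221.6 ± 21.2 in control mice (SD, n = 4 each). For miR-203* the authors' value was empty on MCD 1 and control 2.

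Set beside miR-203, the miR-200 family moved in the opposite direction in its brightest members. The spot intensity of miR-200a was 870, 884, 1461 and 523 in MCD 1 to 4, against 290, 276, 305 and 290 in control 1 to 4. That of miR-200b was 737, 801, 1284 and 485 in MCD 1 to 4, against 271, 281, 273 and 278 in control 1 to 4. For both the groups were far apart, with MCD 3 the highest and MCD 4 the lowest of the MCD arrays. miR-203 did not follow that order, since its lowest MCD spot was on MCD 2 and its highest on MCD 1.

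On the normalized log2 scale the changes were 2.34 ± 0.24 for miR-200a, 2.17 ± 0.21 for miR-200b and 1.00 ± 0.14 for miR-429 (SE), all made from 1 cluster on chromosome 4. The other cluster of the family, on chromosome 6, had smaller changes, 0.32 ± 0.17 for miR-200c and 0.35 ± 0.14 for miR-141 (SE). Both probes were dim, each brighter than the limit of the negative control spots in only 2 of the 8 samples. Their smaller changes were therefore measured close to background. The star strands of the family never exceeded that limit. Over the 10 probes of the family, these dim ones included, the median change was 0.30, against −0.01 over all tested probes. The summed linear level of the family was 1822 to 3320 in MCD and 1146 to 1195 in control. On the control arrays only miR-200a passed the negative control limit, so the control sum is mostly background.

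miRNAs that share an epithelial site with miR-203 were examined next. In the skin and cornea these include miR-205, miR-31 and miR-184. None of the 5 probes of that list passed the test, beside 966 of the 1076 tested probes that did not pass it. The spot intensity of miR-31 was 545, 531, 603 and 506 in MCD 1 to 4, against 571, 485, 428 and 462 in control 1 to 4. These groups overlapped, and the change was 0.10 ± 0.09 (SE, limma adjusted p = 0.613).

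The other probes of the list passed the negative control limit on 0 to 3 of 8 arrays. miR-205, a miRNA of basal epithelial cells, read 261, 271, 280 and 257 in MCD 1 to 4, against 284, 254, 249 and 271 in control 1 to 4, and passed the negative control limit on 1 of 8 arrays. Its change was 0.08 ± 0.11 (SE, limma adjusted p = 0.745). miR-184 had the lowest change of the list, −0.26 ± 0.10 (SE, limma adjusted p = 0.142). It passed the test with spike control scaling (−0.50, limma adjusted p = 0.044), and relative to the median of all tested probes there it was at −0.25. miR-205* and miR-31* were at 0.06 ± 0.10 and 0.09 ± 0.10 (SE). The list median was 0.08. With scaling to the spike controls it was −0.16, and 0.08 relative to the median of all tested probes there. The summed linear level of the list overlapped between the groups, 847 to 917 in MCD and 801 to 907 in control.

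The list of other epithelial miRNAs held the miR-183, miR-96 and miR-182 cluster of sensory epithelia with miR-375 of endocrine cells. It had no called probe among 6, beside 966 of the 1076 tested probes that were not called. Its changes ran from −0.06 to 0.49 with a median of 0.23. The highest was miR-182, at 0.49 ± 0.15 (SE, limma adjusted p = 0.058), which passed the threshold in 10 of its alternatives. miR-203 lay below the lowest member of each epithelial list, but it was chosen because it was lower in MCD.

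**Figure D3:**
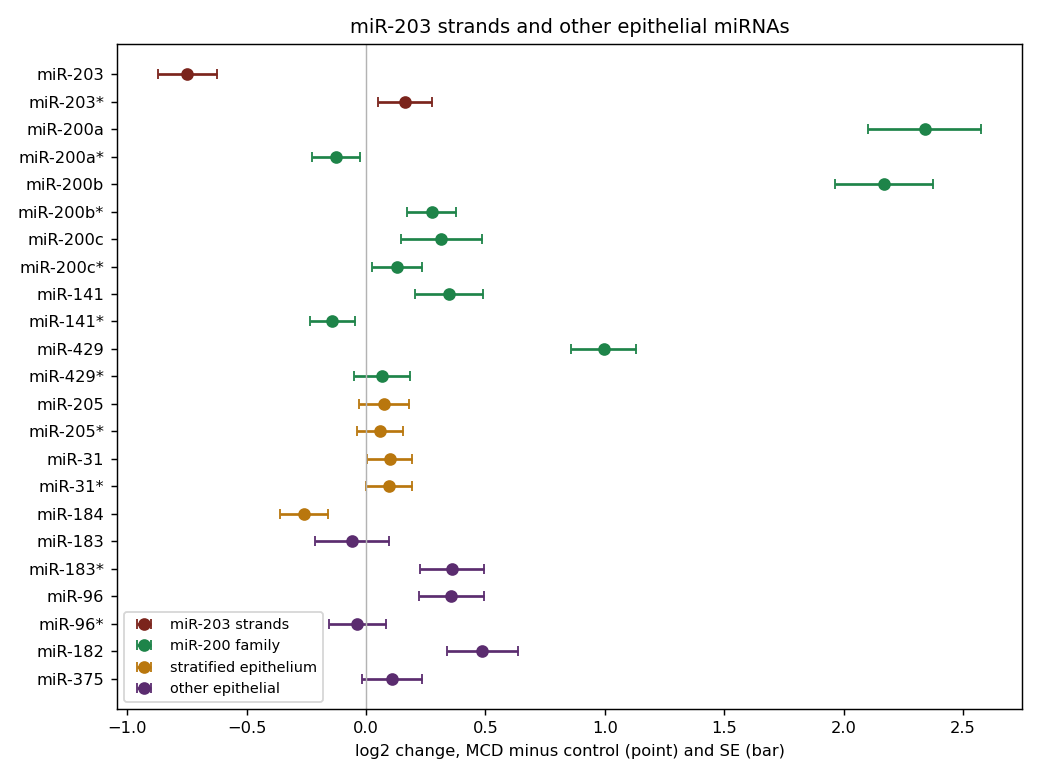
Log2 change, MCD minus control (x axis, points) with its SE (bars), of the miR-203 strands, the miR-200 family and 2 lists of other epithelial miRNAs (y axis, coloured by list). miR-203, which was chosen because it was lower in MCD, is the lowest of the probes shown at −0.75, while miR-200a, miR-200b and miR-429 stand at 1.00 or above.

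miRNAs of the cells that make up the liver differed between the same groups of arrays. miR-122, the defining miRNA of hepatocytes, read 14535 to 18846 scanner units in MCD and 30938 to 40551 in control, so the liver label held on all arrays. Of 9 hepatocyte probes, 6 fell and 3 did not pass the test, beside 4.46% called lower over all tested probes. The list median was −0.57, against −0.01 over all tested probes. Among them miR-101b changed by −1.13 ± 0.09, miR-122 by −0.83 ± 0.13 and miR-194 by −0.65 ± 0.10 (SE). Quantile normalization gave miR-122 the same level, 14.98, on all 4 control arrays, so its change and SE follow its rank among the probes. By contrast, miR-148a, miR-192 and miR-122* no longer passed the test in 12, 8 and 7 of the 22 alternatives. The summed linear level of the list was 22125 to 28848 in MCD and 43895 to 46866 in control, with no overlap. On every array miR-122 made up most of this sum, so it is not a level of the list as a whole. The lowest sum was on MCD 1, where miR-122 had a normalized level of 13.73 although its spot of 18846 units was the highest in MCD. In whole liver, fewer cells of a type and less of a miRNA per cell cannot be told apart.

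Other lists went the other way. Of 10 mesenchymal probes, 7 rose and 3 did not pass the test, beside 62 of 1076 tested probes called higher (5.76%). The list median was 0.77, with summed levels of 6028 to 8109 in MCD and 3642 to 4043 in control. The smallest p were those of the probe of miR-199a-3p and miR-199b (1.35 ± 0.17), miR-125b-5p (0.96 ± 0.12), miR-145 (0.78 ± 0.10) and miR-199a-5p (1.13 ± 0.18; SE). Of 8 leukocyte probes, 4 rose, beside the same 5.76% over all tested probes, among them miR-223 of myeloid cells (0.63 ± 0.15, SE), and each of the 4 lost its call under 2 to 8 alternatives. Of 3 red cell probes none passed the test, beside 966 of the 1076 tested probes that did not pass it. The median of the red cell list was 0.07. The share of these cell types in the miR-203 change was not tested.

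The miRNA genes around Mir203 and the rest of chromosome 12 were examined as well. The nearest other miRNA genes, Mir3073a and Mir3073b, overlap each other 21.6 kb before Mir203, inside the bounds of Aspg. The probe miR-3073-5p read 224, 244, 268 and 240 in MCD 1 to 4, against 261, 329, 284 and 250 in control 1 to 4, and it passed the blank limit on 1 MCD array and 4 control arrays. Its change was −0.39 ± 0.17 (SE, limma adjusted p = 0.188), and miR-3073-3p was too dim to be tested. Besides the miR-203 strands, 122 tested probes could be matched by name to this chromosome alone. They do not include miR-3073-5p, whose older name had no match. Of these 122, 13 were called higher and none lower, beside 5.76% higher and 4.46% lower over all tested probes, with a median of 0.01 and a range of −0.35 to 1.53. The smallest p of these were those of miR-376a (1.53 ± 0.16), miR-411* (0.97 ± 0.14), miR-379 (1.51 ± 0.22) and miR-376b (1.25 ± 0.19; SE). They belong to the imprinted cluster whose host RNAs Meg3, Rian and Mirg end 2.559, 2.469 and 2.381 Mb before Mir203.

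Finally, the probes with the pattern most like that of miR-203 over the 8 arrays were found by the root mean square difference of the centred log2 levels. The search covered the 231 probes above the limit of the negative controls on 4 or more arrays. The 5 nearest were miR-363-5p (0.130), miR-378 (0.156), miR-680 (0.158), miR-5126 (0.190) and miR-3960 (0.194), whereas the median over the 231 was 0.437. All 5 had lower means in MCD-fed mice, which the measure of likeness itself favours, and their changes were −0.72, −0.73, −0.72, −0.50 and −0.70. miR-378, made from an intron of the coactivator gene Ppargc1b, read 602, 528, 549 and 491 in MCD 1 to 4, against 842, 732, 752 and 658 in control 1 to 4, without overlap.

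**Figure D4:**
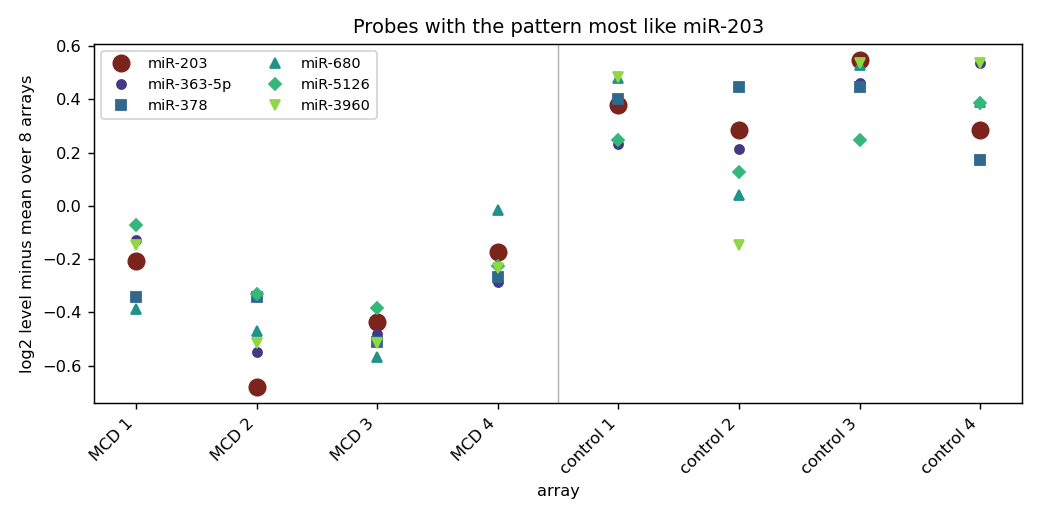
Normalized log2 level minus the probe's mean over the 8 arrays (y axis) on each MCD and control array (x axis), for miR-203 and the 5 probes with the smallest root mean square difference from it. All 6 lay below their own mean on the 4 MCD arrays, and 5 of the 6 lay above it on the 4 control arrays, the exception being miR-3960 on control 2.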

How the data were processed

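Total liver RNA of 4 MCD and 4 control samples was labelled and hybridised to a Toray mouse miRNA chip. The labels name the dye Hy5, whereas the scanner columns carry the wavelength of the green dye, which were the same on every array. The authors deposited scanner files with a median intensity and a local background intensity for each of 3136 spots, uncorrected and on a linear scale, and a table of processed intensity values that lay on a straight line of the scanner intensity of each array. That table was used as an alternative. No probe sequences were used here.

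In limma 3.58.1 (R 4.3.3), the local background was subtracted from the intensity of every spot. Normexp with an offset of 50 was then applied to all spots, followed by log2 transformation and quantile normalization of the 1135 miRNA probes. The offset pulls changes of dim probes towards 0. Testing was limited to the 1076 probes that exceeded the mean + 2 SD of the 1818 blank spots on 4 or more of the 8 arrays. Per array, 65.9% to 91.9% of the probes passed this limit in MCD and 42.4% to 90.4% in control, whereas 211 to 404 probes in MCD and 204 to 277 in control passed the limit of the 24 negative control spots. The groups were compared with lmFit and eBayes (two-sided, no block, Benjamini-Hochberg adjustment over 1076 probes, threshold 0.05). The script was checked on simulated data. The number of arrays limits the precision.

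The members and the lists were chosen with earlier results of these data known. Named were both miR-203 strands, all probes of the miR-200 and stratified epithelium lists, up to 4 probes with the smallest p of the other lists and of the chromosome, the 5 probes most like miR-203, probes sharing its seed and its neighbours in the genome. Of the 1135 probes, 860 were matched to 1 chromosome of RefSeq (GRCm38.p6), 31 to several and 244 to none. The alternatives covered background correction, scaling, the filter, array weights, the replicate number as a block, the methods' t-test and leaving out each array.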

Additional observations from a re-analysis of the deposited data

Results flagged for a closer look

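The probes named above were checked in each diet group for an array far from the other 3, by Dixon's test. Of 129 groups checked, 11 held such an array, and chance alone marks about 1 in 20 groups. No group of miR-203 or miR-203* was among them.

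All values are normalized log2 levels. Among MCD arrays, miR-200c* was low on MCD 2 (6.75, the others 7.09 to 7.15), miR-122 was low on MCD 1 (13.7, the other 3 sharing 14.3 by rank after quantile normalization, although its spot of 18846 units was the highest of the 4), miR-122* was low on MCD 3 (8.85, the others 9.49 to 9.61), miR-101a was low on MCD 4 (6.59, the others 7.13 to 7.21) and miR-143 was high on MCD 3 (10.02, the others 9.49 to 9.56).

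Among control arrays, control 4 was low for miR-101a (6.81, the others 7.21 to 7.29) and for miR-378 (9.11, the others 9.34 to 9.39), and control 1 was low for the probe of miR-199a-3p and miR-199b (8.24, the others 8.43 to 8.46). Control 2, the array with the fewest probes above the blank limit, was high for miR-146a (9.30, the others 8.08 to 8.22) and miR-144 (7.03, the others 6.80 to 6.83) and low for miR-3960 (11.4, the others 12.02 to 12.07). Of these, miR-378 and miR-3960 are among the 5 probes with a pattern like that of miR-203.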

How the results depend on the processing

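miR-203 was lower in MCD-fed mice under all 22 alternatives, but it was chosen because it was lower under every processing. The alternatives of the filter and the replicate block cannot alter its change, which stayed at −0.75 there. Its change moved by more than the spread between replicates with no background correction (−0.49), with the blank mean subtracted (−1.13), with median scaling (−0.52) and with 75th percentile scaling (−0.54), and leaving out each array gave −0.82 to −0.65. The change of miR-203* was 0.34 with the blank mean subtracted and −0.055 with scaling to the spike controls, and 0.09 to 0.23 leaving out each array. It was not computed under the 2 stricter filters, which miR-203* did not pass, or in the authors' values, which were empty for it on MCD 1 and control 2.

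In the whole table there were 62 probes higher in MCD and 48 probes lower in MCD. Subtracting the blank mean gave 29 higher and 15 lower, and spike control scaling gave 34 higher and 93 lower. Fewer were lower with median scaling (30) and with 75th percentile scaling (31). The methods' t-test called 122 higher and 94 lower unadjusted, and 34 higher and 24 lower after Benjamini-Hochberg adjustment. Leaving out each array gave 45 to 70 higher and 28 to 48 lower, lowest for the lower probes without control 1 or control 4. The causes were not tested.

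With the replicate number as a replicate block there were 67 probes higher in MCD and 51 probes lower in MCD. The miR-203 change stayed at −0.75, which a block over groups of equal size cannot alter. Same-numbered arrays deviated together with r = 0.0756, 0.0953, −0.00685 and 0.0636, and differently numbered arrays with r = −0.118 to 0.0789. These values overlap and do not settle whether the numbers pair the samples. No block was used in the main fit because the methods describe an unpaired test. Dim signal limits both strands. miR-203* never passed the negative control limit and miR-203 passed it on MCD 2 with 295 against 281.0 units.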
